A study of Mus musculus with 12 samples.

Results

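Transcripts of 10 genes of de novo lipogenesis (Acly, Acaca, Acacb, Fasn, Elovl6, Scd1, Scd2, Me1, Srebf1 and Mlxipl) were compared between HER2-driven mammary tumors and benign mammary tissue of the mouse. The genes were chosen by their known place in fatty acid synthesis, with earlier results of these data known. All 10 were found among the 16411 genes of the count table. RNA was sequenced from 6 tumors and 6 benign samples of female mice that were heterozygous for the MMTV/neu ndl-YD5 transgene on the FVB background and received no treatment. In this line the mouse mammary tumor virus promoter drives an activated HER2 receptor in the mammary epithelium, and the benign tissue carried the same transgene. Benign tissue was mammary tissue with no visible tumor, taken far from any tumor, and the tumors and benign samples came from different mice. Total counts were between 5240853 and 8170687 in benign tissue and between 6111393 and 8588567 in tumors, so that even the least abundant of the 10 genes, Mlxipl, had 38 to 97 counts per tumor.

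De novo lipogenesis builds fatty acids from carbohydrate carbon. ATP citrate lyase (Acly) cuts citrate into acetyl-CoA, the acetyl-CoA carboxylases (Acaca and Acacb) turn acetyl-CoA into malonyl-CoA, and fatty acid synthase (Fasn) assembles palmitate from malonyl-CoA with NADPH, part of which malic enzyme (Me1) supplies. Elovl6 lengthens palmitate, and the stearoyl-CoA desaturases (Scd1 and Scd2) introduce a double bond. The transcription factors SREBP-1 (Srebf1) and ChREBP (Mlxipl) switch on these enzymes in response to insulin and to sugar, and in the mammary gland both the fat cells of the stroma and the secretory epithelium make fatty acids in this way.

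The 3 promoters shown here belong to the synthase and to both regulators, the genes on which the comparison turns. Each is the 250 bases before the RefSeq start site on build GRCm38.p6, read 5′ to 3′ on the strand of the gene. Capitals mark every match, on either strand, to the CCAAT box (CCAAT), the GC box (GGGCGG), the E-box CACGTG or the sterol response element TCACNCCAC. Fasn lies on the minus strand, with its window at chr11:120824548-120824797. Srebf1 lies on the minus strand, with its window at chr11:60222582-60222831. Mlxipl lies on the plus strand, with its window at chr5:135089640-135089889.
Fasn: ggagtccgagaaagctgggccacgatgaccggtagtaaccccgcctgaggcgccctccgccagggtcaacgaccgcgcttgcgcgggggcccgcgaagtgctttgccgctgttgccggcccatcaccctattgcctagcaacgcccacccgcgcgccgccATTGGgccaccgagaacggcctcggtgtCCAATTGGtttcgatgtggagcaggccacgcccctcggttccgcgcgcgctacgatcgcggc
Srebf1: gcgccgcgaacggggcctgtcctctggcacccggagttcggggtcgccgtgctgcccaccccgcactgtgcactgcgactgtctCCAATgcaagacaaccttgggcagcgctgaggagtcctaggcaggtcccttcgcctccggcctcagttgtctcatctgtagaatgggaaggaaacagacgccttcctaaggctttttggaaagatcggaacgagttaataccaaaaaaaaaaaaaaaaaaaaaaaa
Mlxipl: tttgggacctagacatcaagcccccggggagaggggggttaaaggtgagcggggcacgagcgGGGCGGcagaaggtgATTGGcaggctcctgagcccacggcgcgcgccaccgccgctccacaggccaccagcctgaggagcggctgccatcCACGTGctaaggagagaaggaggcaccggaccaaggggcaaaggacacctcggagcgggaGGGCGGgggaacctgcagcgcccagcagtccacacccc
The Fasn window held CCAAT boxes 90, 62 and 59 bases before the start, of which the last 2 overlap. The Srebf1 window held 1 CCAAT box, 166 bases before the start. The Mlxipl window held GC boxes 188 and 38 bases before the start, a CCAAT box at 173 bases and an E-box at 98 bases. A window was matched for 6 of the 10 genes (Fasn, Acly, Elovl6, Me1, Srebf1 and Mlxipl), and 3 of the 6 held a CCAAT box, 3 a GC box, 1 an E-box and 0 the sterol response element. Among all 32851 promoters of the same length, these motifs were found in 33.8%, 32.7%, 6.02% and 1.05%. These matches describe the letters of the windows and carry no information on binding.

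Most of the pathway was lower in tumors, with Srebf1 as the clearest exception. Acly, Acaca, Acacb, Fasn, Elovl6, Scd1 and Mlxipl fell, Srebf1 rose, and Me1 did not pass the test. Scd2 also rose, but its groups overlapped and its rise did not pass in every fit tried. Levels are given as CPM, read counts divided by each library's TMM-scaled size. The word called is kept for genes with an adjusted p-value below 0.1 by edgeR's quasi-likelihood test, run on 13191 genes. Of the 10 genes, 7 were called lower, where 34.8% of all genes tested were, and 2 were called higher, where 28.2% were. The median log2 fold change was -2.95 over the 10 genes and -0.06 over all genes tested. In 7 of the 10 genes every tumor lay below every benign sample, against 21.2% of all genes, and in 1 every tumor lay above every benign sample, against 14.7%. The exact two-sided permutation test over 924 regroupings gave p = 0.00216, the smallest value it allows, for each of these 8 genes. Full separation of the groups fixes this value, so it repeats the separation and adds nothing to it. Together the 10 genes took 3.20% to 5.43% of the scaled counts of a benign sample and 0.409% to 0.817% of those of a tumor.

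**Figure D1:**
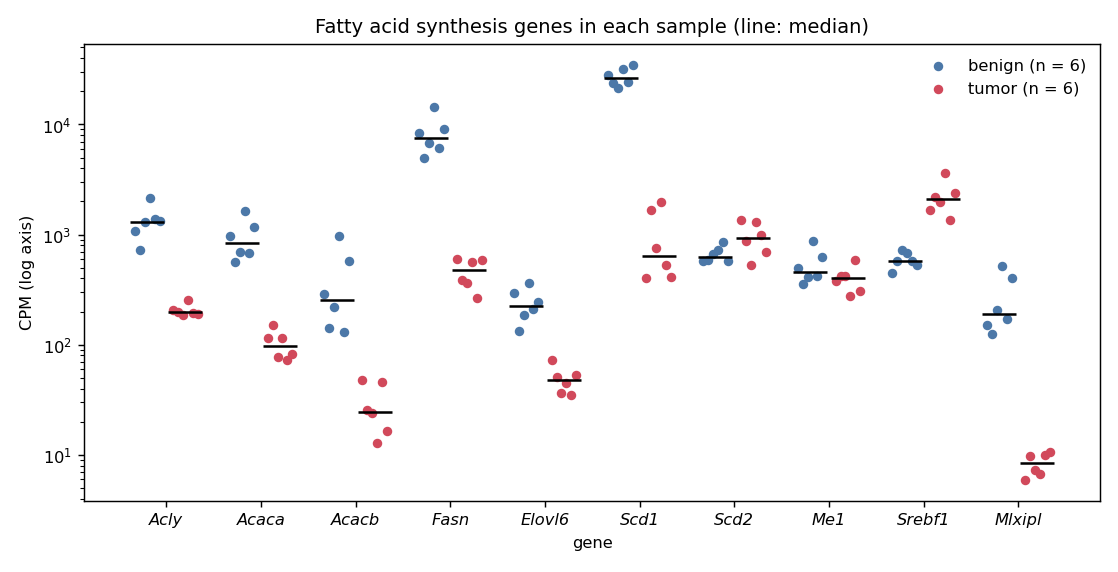
Level of each of the 10 genes in every sample, in CPM on a log axis, with benign samples and tumors as separate points and the group median as a line. The groups were apart for every gene but Scd2 and Me1, and Srebf1 was the gene whose tumors all lay above the benign samples.

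The bulk of these tissues differed in cell type markers as well. The counts of called markers stand beside 34.8% of all genes tested called lower and 28.2% called higher. All 12 adipocyte markers were called lower, with log2 fold changes between -9.37 and -3.20, and their summed level was 23426 to 46498 CPM in benign samples and 208 to 443 CPM in tumors. Of 8 luminal epithelial markers, 5 were called higher and 1 lower, and their sum was 945 to 2457 CPM in benign samples and 2585 to 4313 CPM in tumors. All 6 basal epithelial, 5 endothelial and 5 fibroblast markers and 4 of 5 macrophage markers were called lower. Of 6 milk genes, which mark the secretory epithelium, Csn3 and Lalba were called higher and Csn1s1, Csn1s2a and Csn2 lower, and their sum was 572 to 11007 CPM in benign samples and 1921 to 16935 CPM in tumors. In these bulk samples fewer cells of a type and less RNA per cell cannot be told apart. The part of the lower adipocyte transcripts in the falls below was not tested. Nor was the part of the higher luminal epithelial transcripts in the rises below. The benign samples also differed among themselves. Summed skeletal muscle markers were 37474 to 95481 CPM in benign samples 3, 4 and 6 and 34.8 to 400 CPM in benign samples 1, 2 and 5, and Ucp1, which marks brown fat, was 1434 CPM in benign sample 4 and 217 CPM in benign sample 6 but at most 41.0 CPM in the other benign samples. Lymphocyte markers summed to 937 CPM in benign sample 1 and to at most 12.4 CPM in the other benign samples.

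The first steps of the pathway were lower in every tumor. Acly, whose product is the acetyl-CoA used for synthesis (chromosome 11, 100476353 to 100528000, build GRCm38), had a lowest, median and highest level of 725, 1313 and 2127 CPM in benign tissue and 187, 197 and 254 CPM in tumors. Its tumors formed a narrow band, and the mean fell 6.44-fold, from 1322 ± 462 to 205 ± 24.9 CPM (SD, n = 6 each; log2 fold change -2.69, SE 0.23, adjusted p = 5.7e-07).

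Acaca, the carboxylase of the cytosol that supplies malonyl-CoA for synthesis (chromosome 11, 84129672 to 84401651), was at 570, 832 and 1621 CPM in benign tissue and at 72.0, 98.1 and 152 CPM in tumors. The mean was 9.32-fold lower, 102 ± 30.8 against 951 ± 395 CPM (log2 fold change -3.22, SE 0.30, adjusted p = 1.3e-06). Acacb, the carboxylase of the outer mitochondrial membrane whose malonyl-CoA restrains fatty acid import (chromosome 5, 114146535 to 114250761), was at 131, 255 and 966 CPM in benign tissue and at 12.8, 24.8 and 47.6 CPM in tumors. It fell 13.5-fold on the means (log2 fold change -3.76, SE 0.56, adjusted p = 9.2e-05) and was the most uneven of the 10 genes in benign tissue, where the highest sample had 7.35 times the level of the lowest. Without benign samples 3, 4 and 6 its log2 fold change was -2.66, and with the muscle score and Ucp1 as covariates it was -2.30, both still called.

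No shift between the 2 carboxylases was detected. Per kilobase of exon, Acacb made up 17.2% to 39.2% of the summed Acaca and Acacb level in benign tissue (median 25.0%) and 10.8% to 40.6% in tumors (median 21.6%). The log2 ratio of Acacb to Acaca differed by -0.35 between tumors and benign tissue, which the spread between samples covers (exact permutation p = 0.44, n = 6 each), and by 0.10 without benign samples 3, 4 and 6.

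Fasn, the synthase itself (chromosome 11, 120805846 to 120824547, minus strand, the first of the promoters above), was at 4975, 7563 and 14431 CPM in benign tissue and at 264, 476 and 603 CPM in tumors. The highest tumor stayed far under the lowest benign sample. The mean fell 17.9-fold, from 8292 ± 3353 to 462 ± 141 CPM (log2 fold change -4.17, SE 0.33, adjusted p = 3.0e-07).

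Elovl6, which lengthens the palmitate that the synthase releases (chromosome 3, 129532355 to 129638495), was at 134, 227 and 367 CPM in benign tissue and at 35.0, 48.1 and 73.2 CPM in tumors. Its fall of 4.88-fold was the smallest among the 7 genes called lower (log2 fold change -2.29, SE 0.25, adjusted p = 6.9e-06).

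The 2 desaturases moved in opposite directions. Scd1, the main desaturase of fat tissue (chromosome 19, 44394455 to 44407879, minus strand), was at 21372, 26331 and 34838 CPM in benign tissue and at 401, 637 and 1958 CPM in tumors, a fall of 28.8-fold on the means (log2 fold change -4.85, SE 0.48, adjusted p = 2.4e-06). Tumors 2 and 4 had 1666 and 1958 CPM and the other tumors 401 to 749 CPM. Scd2, a second desaturase encoded 87590 bases away on the opposite strand (chromosome 19, 44293674 to 44306864), was at 579, 628 and 856 CPM in benign tissue and at 531, 937 and 1368 CPM in tumors. The groups overlapped, since 4 tumors exceeded all benign samples and 1 lay below them all. The mean was 1.44-fold higher in tumors (log2 fold change 0.53, SE 0.22, adjusted p = 0.062), and the exact permutation test for this gene gave p = 0.0844. The call was lost without benign sample 6 (log2 fold change 0.49, adjusted p = 0.106) and without benign samples 3, 4 and 6 (0.55, adjusted p = 0.17).

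The balance between the desaturases shifted in every tumor. Per kilobase of exon, Scd2 made up 1.45% to 3.02% of the summed Scd1 and Scd2 level in benign tissue (median 2.07%) and 31.7% to 75.1% in tumors (median 49.3%). The log2 ratio of Scd2 to Scd1 was 5.60 higher in tumors (exact permutation p = 0.00216, n = 6 each, 2 such ratios tested). Most of this shift was the fall of Scd1, with log2 fold changes of -4.85 for Scd1 and 0.53 for Scd2. The part of the lower adipocyte transcripts in it was not tested. Scd1 shared 4.56% of its 50-base exon stretches with other genes, mostly the desaturase Scd3, and Scd2 shared 3.97%, mostly with Scd1.

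**Figure D2:**
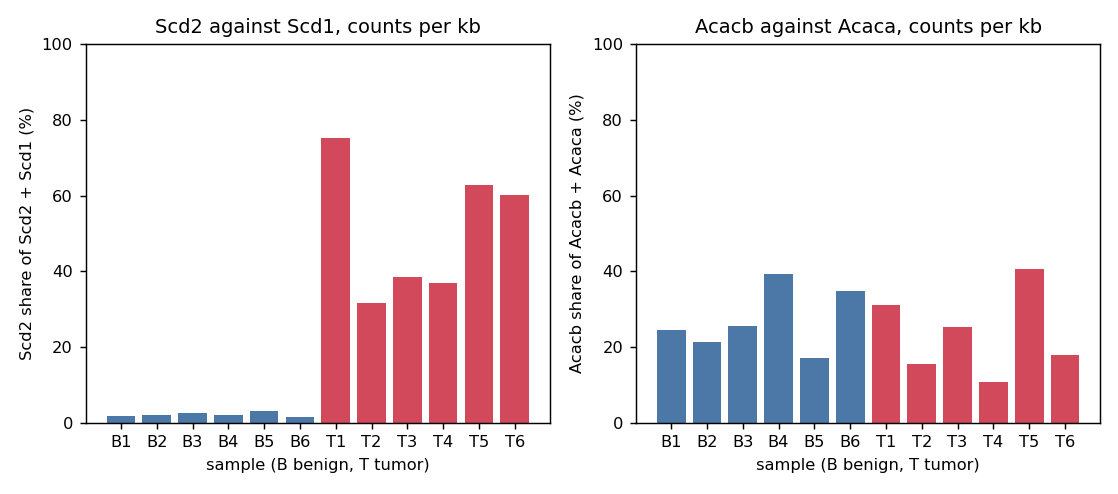
Share of Scd2 in the summed Scd1 and Scd2 level and share of Acacb in the summed Acaca and Acacb level, each in percent of counts per kilobase of exon, with 1 bar per sample. The Scd2 share was at most 3.02% in benign samples and at least 31.7% in tumors, while the Acacb shares of the groups overlapped.

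Me1, which makes NADPH for the synthase (chromosome 9, 86581371 to 86695953), was at 354, 458 and 870 CPM in benign tissue and at 277, 400 and 583 CPM in tumors. Only 2 tumors lay below all benign samples, and the difference did not pass the test (log2 fold change -0.41, SE 0.24, adjusted p = 0.16). It was called without tumor 5 (-0.48, adjusted p = 0.090), and it turned to 0.15 with the muscle score and Ucp1 as covariates. Me1 and Acaca shared 28.3% and 30.4% of their 50-base exon stretches with other annotated genes, mostly the pseudogenes Gm7049 and Gm5182, so their counts are less certain than those of Fasn, Acly and Acacb, which shared 0.

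The 2 regulators parted as well. Srebf1 (chromosome 11, 60199089 to 60222581, minus strand, the second promoter above) was at 452, 576 and 723 CPM in benign tissue and at 1361, 2089 and 3640 CPM in tumors, so that every tumor lay above every benign sample. The mean rose 3.75-fold, from 589 ± 98.1 to 2206 ± 791 CPM (log2 fold change 1.91, SE 0.23, adjusted p = 1.5e-05). The summed luminal epithelial markers were also higher in tumors. Relative to them, the log2 ratio of Srebf1 was -1.39 ± 0.46 in benign samples and -0.77 ± 0.54 in tumors, a difference of 0.63. The counts are per gene and do not separate the SREBP-1a and SREBP-1c transcripts. Rai1, which overlaps Srebf1 on the opposite strand, rose by 0.54 on the log2 scale, from 79.1 ± 14.1 to 115 ± 15.3 CPM (adjusted p = 0.0040). Srebf1 shared 1.33% of its 50-base exon stretches with other genes, mostly with Rai1. The strand setting of the counting is not given, so reads of the 2 genes cannot be told apart with certainty. Mlxipl (chromosome 5, 135089890 to 135138382, plus strand, the third promoter above) was at 124, 190 and 522 CPM in benign tissue and at 5.92, 8.49 and 10.6 CPM in tumors. Its mean was 31.5-fold lower (log2 fold change -4.97, SE 0.40, adjusted p = 3.8e-07), a fall close to that of Scd1. Without benign samples 3, 4 and 6 its log2 fold change was -4.11 against -4.70 for Scd1, and with the covariates it was -3.84.

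**Figure D3:**
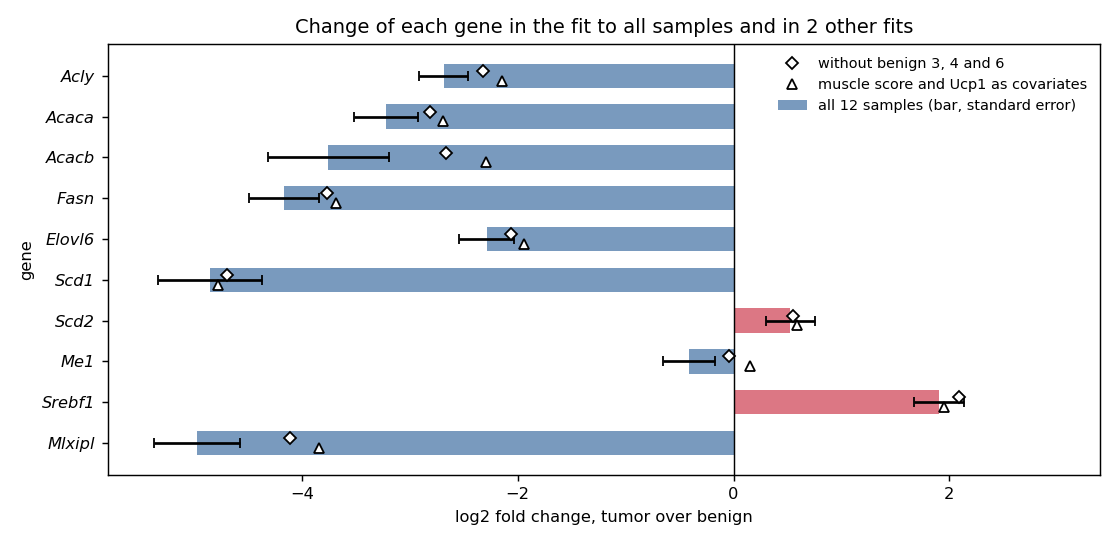
Log2 fold change of each gene, tumor over benign, with all 12 samples (bars, with the standard error of the fit), without benign samples 3, 4 and 6 (diamonds) and with the muscle score and Ucp1 as covariates (triangles). Acacb and Mlxipl moved the most between the fits, to -2.30 and -3.84 with the covariates, and Me1 was the gene that changed sign.

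The order of the genes changed between the tissues when their mean levels were set side by side per kilobase of exon. In benign tissue Scd1 led with 5680 CPM per kilobase, followed by Fasn with 825, Acly, Me1, Srebf1, Scd2, Acaca, Mlxipl, Acacb and Elovl6. Of the 9 neighbouring pairs in this order, Scd1 with Fasn and Fasn with Acly were the 2 whose sample ranges did not overlap. In tumors Srebf1 led with 513 CPM per kilobase, followed by Scd1 with 197, Scd2 with 176, Me1, Fasn with 46.0, Acly, Acaca, Elovl6, Acacb and Mlxipl. There, Me1 with Fasn, Acly with Acaca and Elovl6 with Acacb were the 3 neighbours with separate ranges. Srebf1 made up 46.2% of the summed mean levels per kilobase in tumors and 1.84% in benign tissue.

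The 10 genes were also set against the markers of the tissue components in the same library. The adipocyte sum used for this held 8 markers (Adipoq, Plin1, Cidec, Lep, Cfd, Retn, Plin4 and Adrb3) and left out Fabp4, Pnpla2, Car3 and Lpl, which other cells of the tissue also express. It was 5338 to 10640 CPM in benign samples and 9.08 to 69.5 CPM in tumors, and the log2 fold changes of its 8 markers lay between -9.37 and -7.39, below that of each of the 10 genes. Dividing by this sum moves all genes of a sample by the same amount, so all 10 ratios were higher in tumors and their separation is no test of single genes. The differences in log2 ratio ran from 3.10 for Scd1 and 3.44 for Mlxipl through 4.09 for Fasn to 7.85 for Me1, 8.70 for Scd2 and 10.1 for Srebf1. Relative to the summed luminal epithelial markers, which were higher in tumors, the differences ran from -6.36 for Scd1 to -0.76 for Scd2 over 9 genes, and Srebf1 was at 0.63. The order of the genes is the same on both scales, and only the common shift differs.

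**Figure D4:**
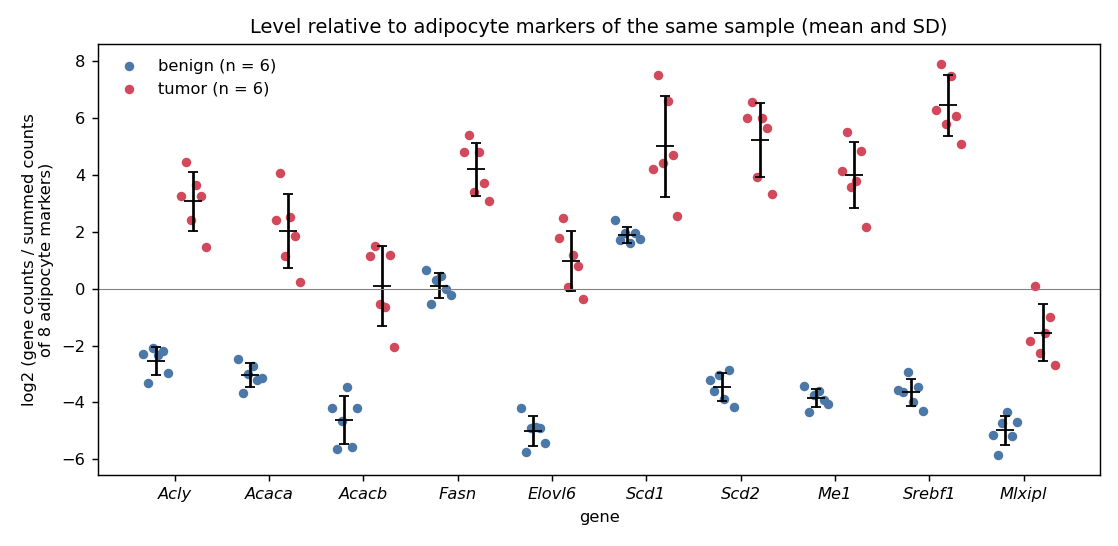
Log2 ratio of each of the 10 genes to the sum of 8 adipocyte markers in every sample, with the mean and SD of each group. All tumors lay above all benign samples for each gene, by 3.10 on average for Scd1 and by 10.1 for Srebf1, with 1 common denominator per sample.

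Within benign tissue most of the enzymes varied together. Benign sample 4 had the highest level of Acly, Acaca, Acacb, Fasn, Elovl6, Me1 and Mlxipl, and it was also the sample with the most Ucp1. Scd2 and Srebf1 did not follow this order, and Scd1 was higher in benign sample 6 (34838 CPM) than in benign sample 4 (32017 CPM). Over the 6 benign samples, each pair of values coming from 1 library with its own mix of fat and muscle, the Pearson correlation with Fasn was 0.98 for Acaca and Me1, 0.95 for Acacb, 0.93 for Elovl6, 0.87 for Mlxipl, 0.84 for Acly, 0.75 for Scd1, 0.10 for Srebf1 and 0.06 for Scd2. The genes most like Fasn across these samples, among 10941 compared, were Ficd, Impdh1, Pdp2, Ppcs and Txnrd2, with correlations from 0.97 to 0.99. Over the 6 tumors the same measure was 0.78 for Elovl6, 0.59 for Srebf1, 0.45 for Acly, 0.37 for Acaca, 0.32 for Scd2, -0.04 for Scd1, -0.44 for Acacb and -0.90 for Me1, and the nearest of 9963 genes were Pik3c2g, Rab1b, Nbn, Ndufb6 and Klhdc7a. The correlations were taken on log2 CPM, over genes with a mean of at least 10 CPM in the group. Mlxipl, at a mean of 8.38 CPM in tumors, was therefore left out there. With 6 samples these values are descriptions.

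**Figure D5:**
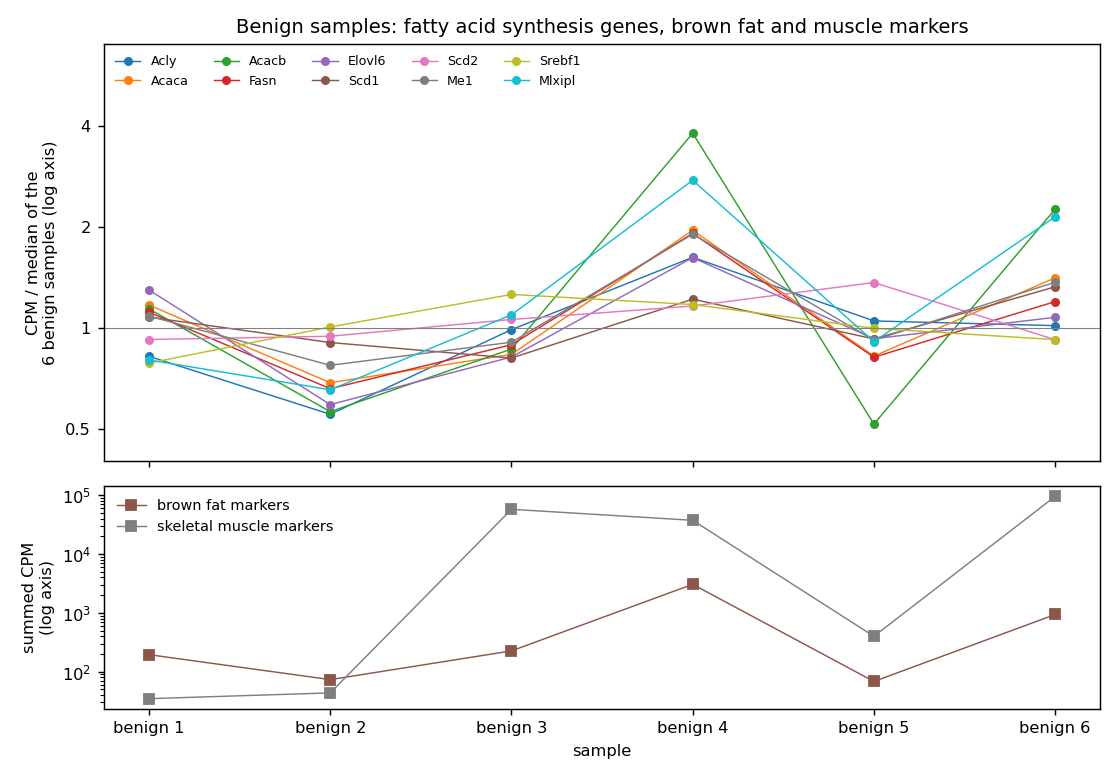
Level of each of the 10 genes in each benign sample relative to the median of the benign samples, on a log axis, above the summed skeletal muscle and brown fat markers of the same samples in CPM. Lines join the points of 1 gene or list and imply no order of the samples. Benign sample 4 was the highest for 7 of the 10 genes and had the most brown fat marker transcripts, 3057 CPM.

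Other genes of the pathway were read from lists. Of 16 regulators of lipogenesis, 5 were called higher, beside 28.2% of all genes, and 7 lower, beside 34.8% (median log2 fold change -0.03). The stress-induced pseudokinase Trib3 rose the most (log2 fold change 3.01, adjusted p = 1.0e-06). Srebf2, the sterol-regulating relative of Srebf1, rose by 0.96, Scap, the escort of the precursors, by 0.77, and the proteases Mbtps1 and Mbtps2 by 0.54 and 0.56, each with all 6 tumors above all benign samples. The largest falls among the regulators were those of Pnpla3, a lipid droplet enzyme (-5.87), Thrsp, the lipogenic Spot 14 protein (-5.70), and Nr1h3, the oxysterol receptor LXR alpha (-4.01). Insig1, which holds the precursors in the endoplasmic reticulum, fell by 2.84, and the log2 fold change of Insig2 was 0.10 and not called.

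Of 16 genes that supply substrate and NADPH, 14 were called lower, beside 34.8% of all genes, and 1 higher, beside 28.2% (median log2 fold change -1.48). The single rise was in the glucose transporter Slc2a1, with 192 ± 59.3 CPM in tumors against 47.1 ± 10.4 CPM in benign samples (2.03 on the log2 scale, adjusted p = 1.7e-05), whereas the insulin-responsive transporter Slc2a4 fell from 340 ± 176 to 3.37 ± 2.01 CPM (-6.64, adjusted p = 4.4e-07). Me3, a mitochondrial malic enzyme, fell by 4.73 on the log2 scale, and Acss2, which makes acetyl-CoA from acetate, fell by 3.86.

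Of 17 elongation and desaturation genes tested, 3 were called higher, beside 28.2% of all genes, and 9 lower, beside 34.8% (median log2 fold change -0.45). The highest of the 3 was the desaturase Scd3 (log2 fold change 3.22, adjusted p = 1.3e-05), at a low level of 0.983 ± 0.477 CPM in benign samples and 9.41 ± 3.64 CPM in tumors. On the log2 scale the elongase Elovl7 rose by 1.67 and the dehydratase Hacd4 by 0.60, while the desaturase relative Fads3 (-5.06), the delta-5 desaturase Fads1 (-2.63) and the electron carrier Cyb5a (-2.37) fell. Of 14 genes that act on malonyl-CoA or on the carboxylases, 1 was called higher and 6 lower (median -0.30), beside the same 28.2% and 34.8%. Prkab1, a subunit of AMP-activated kinase, had a log2 fold change of 0.24 (adjusted p = 0.075), and this list's count of higher genes ran from 0 to 3 over the alternatives tried. Prkag3, the muscle subunit of that kinase, had 0 counts in every tumor and was at least 46.1-fold lower than in benign tissue, with the tumors set at a floor of 3 counts per library. Cpt1b, the muscle form of the carnitine transferase that malonyl-CoA inhibits, fell by 5.05, and both Prkag3 and Cpt1b are muscle genes beside the muscle transcripts of benign samples 3, 4 and 6. Of 9 genes of mitochondrial fatty acid synthesis, 7 were called lower, beside 34.8% of all genes, and 0 higher, beside 28.2% (median -0.91). Among the 7 were Mecr (-1.48), Ndufab1 (-1.27) and Lias (-0.99). With the muscle score and Ucp1 as covariates, 2 of the 9 were called lower. That fit called 3465 of all 13191 genes lower, against 4594 without the covariates.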

How the data were processed

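Poly A RNA was sequenced from 6 tumors and 6 benign samples, grouped by their labels. The authors trimmed reads with Trim Galore and ran Salmon. The deposited table holds the resulting estimated counts, given as whole numbers and not corrected for depth. The submitters' processing notes name build mm10, while the version of Salmon and its strand setting are not given in the sources used here. Chi-square tests between replicates gave at least 12.5 per degree of freedom, so no pair was 1 library deposited again.

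Low genes among the 16411 were removed with filterByExpr by group. A gene needed about 10 counts, scaled for depth, in at least as many samples as a group holds, and 15 in total. TMM factors and a two-sided quasi-likelihood test (edgeR 4.0.16, R 4.3.3) followed, with p-values adjusted after Benjamini and Hochberg for 13191 genes and read at 0.1, as in the study. P-values measure the spread between 6 biological replicates per group. Single values and log2 ratios (0.5 added to the counts on each side) were compared by exact permutation and read at 0.05. Ratios to marker sums are given as values. Exon lengths came from GENCODE M21, and promoter windows from RefSeq where the start lay within 100 bases of the annotated one. The test was tried on simulated counts.

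The members and lists were chosen with earlier results of these data known. Named genes of each list are the 3 largest called changes in each direction with a mean of at least 10 CPM in the higher group. Mbtps1, Mbtps2, Insig1, Insig2, Scd3 and Rai1 were chosen after their values were seen. Alternatives were DESeq2 1.42.0, other scalings and filters, a stricter threshold (0.05), a block for the replicate number, covariates, and leaving out samples.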

Additional observations from a re-analysis of the deposited data

Results flagged for a closer look

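Acly in tumor 4 stood apart from the other tumors. Its level was 254 CPM, and the gap to the next tumor was 0.684 of the range of the 6 tumors, above Dixon's critical value for groups of this size. Dixon's test was applied to 24 groups of 6 samples and this was the 1 value past the limit, where chance gives about 1 in 20 groups.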

How the results depend on the processing

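The 7 falls and the rise of Srebf1 kept their direction and their call under every alternative run. The genes called higher numbered 1 instead of 2 with a threshold of 0.05, the replicate block, the muscle score and Ucp1 as covariates, and without benign samples 3, 4 and 6, and 1 to 2 when single samples were left out, because Scd2 was lost. Its log2 fold change was 0.53 at that threshold, 0.47 with the block (adjusted p = 0.116), 0.58 with the covariates, 0.55 without the 3 samples and 0.46 to 0.72 without single samples. Me1 turned to 0.15 with the covariates and was -0.48 to -0.21 without single samples. The tumor minus benign difference in the log2 ratio of Acacb to Acaca turned to 0.10 without the 3 samples. Of the genes acting on malonyl-CoA, those called higher numbered 2 with DESeq2, upper-quartile scaling, at least 10 counts in every sample or the covariates, 3 with total counts, at least 1 count in total or without the 3 samples, 0 at the threshold of 0.05 and 0 to 3 without single samples. Mitochondrial synthesis genes called lower numbered 2 with the covariates, in a fit that called 3465 of all 13191 genes lower against 4594 without them. Set against luminal epithelial instead of adipocyte markers, the tumor minus benign differences in log2 ratio were -5.37 for Fasn, -4.40 for Acaca, -4.75 for Acacb and -3.85 for Acly. These differences were -6.36 for Scd1, -0.76 for Scd2, -3.48 for Elovl6, -1.61 for Me1, -6.02 for Mlxipl and 0.63 for Srebf1. The cause of these moves was not tested. Same-numbered samples did not deviate together (correlations -0.124 to 0.103, 0 of 6 best with their own number). The correlations alone cannot exclude pairing, since the benign samples also differed in muscle and brown fat markers. The paper states that these tumors and benign samples came from different mice.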
